A study of Mus musculus with 8 samples.

Results

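The integrin alpha subunits that take part in binding extracellular matrix were followed across the cell classes and cell populations of the adult mouse liver. The set was drawn up by gene name and holds 10 of the 46517 genes in the count table: *Itga1*, *Itga2*, *Itga3*, *Itga5*, *Itga6*, *Itga7*, *Itga8*, *Itga9*, *Itga11* and *Itgav*. The transcriptomes were made by Smart-seq2, a plate-based method that reads whole transcripts from single sorted cells without molecular identifiers, and 3491 cells were deposited as 8 pools. Each pool held the male or the female cells of 1 class, with 998 male and 339 female mesenchymal cells, 655 and 451 endothelial cells, 255 and 396 immune cells, and 358 and 39 epithelial cells (called parenchymal in the study). The mice were healthy C57BL6/J animals between 8 weeks and 1 year of age. Some carried heterozygous reporter transgenes (*Pdgfrb* GFP, *Pdgfra* H2bGFP, *Acta2* GFP, *Cspg4* dsRED, *Cldn5* GFP and combinations of these). Mesenchymal cells were sorted by the first 3 of these reporters and with an antibody to PDGFRA, which limits the mesenchymal cells that could enter the data. Endothelial cells were sorted on PECAM1, CDH5 or the *Cldn5* reporter, cholangiocytes on EPCAM and Kupffer cells on CD68, and hepatocytes were taken without a marker.

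Integrins are receptors of the cell surface, each made of an alpha and a beta subunit, that join the matrix outside the cell to the actin cytoskeleton inside it. The alpha subunit largely sets the ligand. *Itga1*, *Itga2* and *Itga11* encode collagen receptors, *Itga3*, *Itga6* and *Itga7* encode laminin receptors of basement membranes, and *Itga5*, *Itga8* and *Itgav* encode receptors for proteins with the RGD motif such as fibronectin, nephronectin and vitronectin. *Itga9* stands apart and encodes a receptor for tenascin and related ligands. In the liver, hepatocytes face the sinusoid without a continuous basement membrane, whereas bile ducts, large vessels and smooth muscle rest on one.

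Total gene counts per cell ran from 47063 to 1128421, with a median of 228708. Levels are given as CPM, the counts of a gene relative to all gene counts summed over the cells of a pool, with the male value first. A pool was the replicate, so every class had n = 2. The labels do not say which mice made up a pool, so p-values measure the spread between these pools, which may be technical. Sex could not be told apart from plate, because none of the 22 plates held cells of both sexes, and the female mesenchymal pool was 1 plate. The endothelial markers *Pecam1*, *Cdh5*, *Tie1*, *Kdr* and *Ptprb* summed to 7912 CPM in the endothelial class and to 486 CPM in the immune class, of which *Cdh5*, a gene that Kupffer cells also express, made 247, against 53.5 and 54.9 CPM in the epithelial and mesenchymal classes. The mesenchymal markers *Pdgfra* and *Pdgfrb* summed to 1415.5 CPM in the mesenchymal class, and between 1.04 and 12.6 CPM in the other classes.

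The 4 cell classes were compared first, each against the other 3, over 24046 genes. A log2 fold change from this and the later fits sets mean log levels against each other, with equal weight for each class or cluster, so a unit with very low values pulls it further than it would pull a ratio of mean CPM. A gene was called higher or lower at a Benjamini-Hochberg adjusted p under 0.05 with a log2 fold change of at least 1 in size. In the mesenchymal class 4 members were called higher (*Itga1*, *Itga7*, *Itga8* and *Itga11*), where 9.47% of all genes were called higher, and 1 was called lower (*Itga6*), where 2.33% of all genes were. In the endothelial class 3 were higher (*Itga1*, *Itga5* and *Itga6*; 5.33% of all genes) and 2 were lower (*Itga7* and *Itga11*; 2.96%). The immune class had 0 members called higher (7.92% of all genes; 2 at an unadjusted p under 0.05, and 1, *Itga9*, with DESeq2) and 3 called lower (*Itga1*, *Itga3* and *Itga7*; 5.25%). The epithelial class had *Itga3* higher (8.37% of all genes) and *Itga1* lower (4.05%). The median log2 difference over the 10 members was 0.54 in the mesenchymal class, 1.11 in the endothelial, -1.11 in the immune and -0.0035 in the epithelial class, beside medians over all genes of 0.018, 0.037, 0.091 and -0.27.

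**Figure D1:**
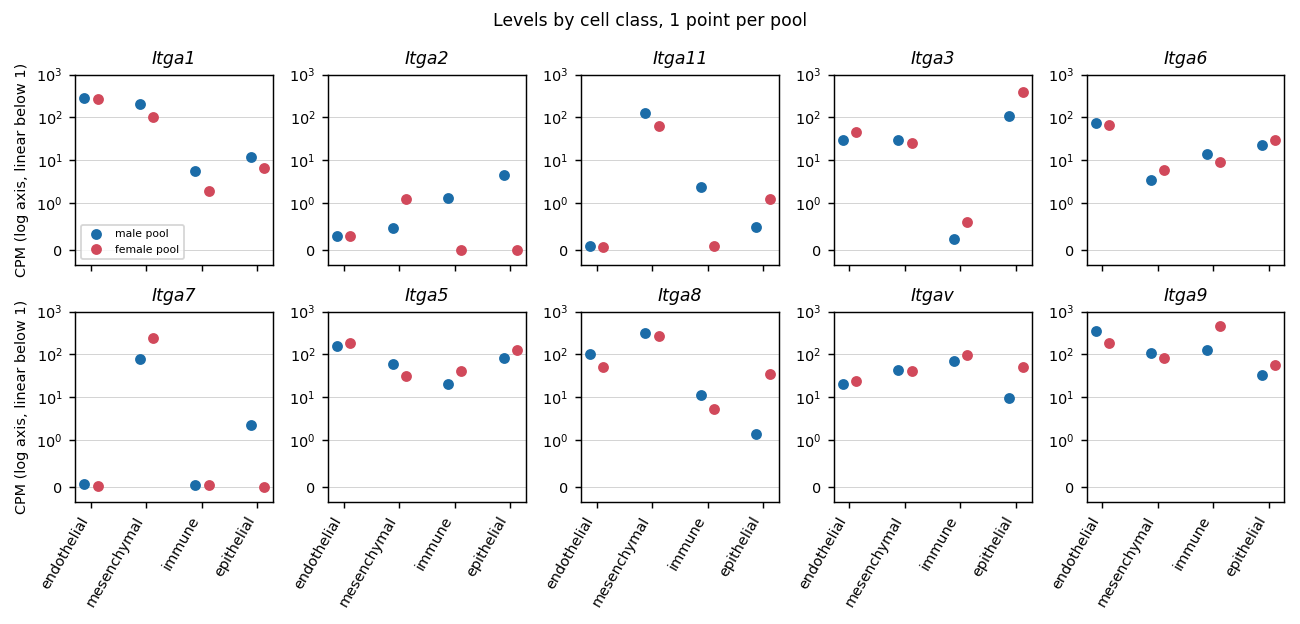
Levels of the 10 genes in the male and the female pool of each of the 4 cell classes, in CPM on a log axis, with 1 point per pool. *Itga7* and *Itga11* lie above 60 CPM in both mesenchymal pools and below 2.5 CPM in every other pool.

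Among the collagen receptors, *Itga1* stood at 289 and 265 CPM in the endothelial pools and at 201 and 104 CPM in the mesenchymal pools. It stood at 11.9 and 6.56 CPM in the epithelial pools and at 5.59 and 1.84 CPM in the immune pools. The classes followed in that order with no overlap between neighbours. The gene differed by a log2 fold change of 3.89 (SE 0.48) in the endothelial class and 2.91 (SE 0.48) in the mesenchymal class, with edgeR quasi-likelihood Benjamini-Hochberg adjusted p-values of 0.00335 and 0.00654. Against the mean CPM of the other 3 classes, the mesenchymal log2 ratio was far smaller, at 0.97 in the male and 0.18 in the female pool, since the endothelial pools were higher than the mesenchymal ones. It was lower in the immune class by 4.21 on the log2 scale (log2 fold change -4.21, SE 0.70, edgeR adjusted p = 0.0065) and in the epithelial class (log2 fold change -2.59, SE 0.63, edgeR adjusted p = 0.0319). The epithelial call was lost when any 1 of 5 pools (both endothelial, both epithelial or the male mesenchymal) was left out, and when the cells of cluster #i9c were, with adjusted p-values up to 0.16. The mesenchymal call was lost without the male mesenchymal pool (edgeR adjusted p = 0.056).

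*Itga11*, the other abundant collagen receptor gene, reached 123 and 61.6 CPM in the mesenchymal pools. The remaining pools held between 0.063 and 2.32 CPM, and did not overlap with the mesenchymal ones. The log2 fold change was 7.83 (SE 0.97, edgeR Benjamini-Hochberg adjusted p = 0.00183) in the mesenchymal class and -5.85 (SE 1.40, adjusted p = 0.0408) in the endothelial class. The endothelial call was lost when any 1 of 6 pools was left out (all but the immune pools), with adjusted p-values up to 0.211. *Itga2*, which encodes the collagen receptor of platelets and many epithelia, was at most 4.46 CPM in any pool and at 0 in the female immune and female epithelial pools. It was called in 0 of the 4 class comparisons, with edgeR or with DESeq2, and its unadjusted p was under 0.05 in 0 of them.

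Of the laminin receptors, *Itga7*, best known from skeletal and smooth muscle, stood at 77.8 and 236 CPM in the mesenchymal pools. It stood at 2.17 and 0 CPM in the epithelial pools and between 0.036 and 0.069 CPM in the endothelial and immune pools. It had the largest fold change of any member between classes (log2 fold change 9.95, SE 0.95, edgeR Benjamini-Hochberg adjusted p = 0.000704 in the mesenchymal class). Its lower values in the endothelial class (log2 fold change -5.43, SE 1.28, adjusted p = 0.0382) and the immune class (-5.21, SE 1.28, adjusted p = 0.0323) rested on few counts, and these calls were lost in 5 of 14 alternative fits each. Those fits were the ones without either endothelial pool, the male epithelial pool, the female mesenchymal pool or the cells of #i9c in the first case, and the ones without either immune pool, the male endothelial, the male epithelial or the female mesenchymal pool in the second, with adjusted p-values up to 1.

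*Itga3*, a laminin receptor gene of epithelia, stood at 106 and 390 CPM in the epithelial pools, at 29.7 and 45.3 CPM in the endothelial pools and at 30.2 and 24.8 CPM in the mesenchymal pools. In the immune pools it stood at 0.235 and 0.587 CPM. The endothelial and mesenchymal pools overlapped, and the other classes were apart from them. *Itga3* was higher in the epithelial class (log2 fold change 4.91, SE 0.51) and lower in the immune class (-7.13, SE 0.85), with edgeR Benjamini-Hochberg adjusted p-values of 0.000945 and 0.00154, and both calls held in all 14 alternative fits. The epithelial pools differed in makeup, with 201 hepatocytes among the 358 male cells and 2 among the 39 female cells, and hepatocytes held 0.111 CPM of *Itga3*, so the class value came from the cholangiocytes. *Itga6*, whose product pairs with *Itgb1* or with the hemidesmosome subunit *Itgb4*, stood at 74.8 and 66.5 CPM in the endothelial pools, 22.4 and 29.1 in the epithelial, 13.6 and 9.13 in the immune and 3.47 and 5.74 in the mesenchymal pools. No neighbours in that order overlapped. It was higher in the endothelial class (log2 fold change 2.61, SE 0.40, edgeR adjusted p = 0.00781) and lower in the mesenchymal class (-2.55, SE 0.52, adjusted p = 0.0162). The endothelial call was lost without either endothelial pool (adjusted p up to 0.0922), and the mesenchymal call without either pool of the endothelial or mesenchymal class or without the cells of #i9c (adjusted p up to 0.193).

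Of the RGD receptors, *Itga8*, whose product binds nephronectin and fibronectin, stood at 308 and 269 CPM in the mesenchymal pools, and at 101 and 49.3 CPM in the endothelial pools. The immune pools held 11.2 and 5.38 CPM and the epithelial pools 1.37 and 35.3 CPM, and these last 2 classes overlapped. *Itga8* was higher in the mesenchymal class (log2 fold change 3.77, SE 0.81, edgeR Benjamini-Hochberg adjusted p = 0.0197), a call lost without the male mesenchymal pool (adjusted p = 0.0647). *Itga5*, the classical fibronectin receptor gene, stood at 156 and 186 CPM in the endothelial pools, 83.8 and 125 in the epithelial, 59.4 and 31.3 in the mesenchymal and 20.7 and 40.4 in the immune pools. It was higher in the endothelial class by a log2 fold change of 1.62 (SE 0.41, edgeR adjusted p = 0.0478). With the replicate as a block, which pairs the male and the female pools, that value became 1.61 with an adjusted p of 0.0608, and the call was lost in 8 of 14 alternative fits, among them those without any 1 pool except the female immune one (adjusted p up to 0.329).

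*Itgav*, whose product pairs with several beta subunits and binds vitronectin and latent TGF beta, was found in every pool. It stood at 68.3 and 99.0 CPM in the immune pools, 42.9 and 40.9 in the mesenchymal, 20.2 and 24.2 in the endothelial and 9.39 and 50.004 in the epithelial pools. The immune pools were above all others, but the difference was not called (log2 fold change 1.60, SE 0.53, edgeR Benjamini-Hochberg adjusted p = 0.0917). *Itga9* stood at 347 and 182 CPM in the endothelial pools, 125 and 467 in the immune, 108 and 82.4 in the mesenchymal and 33.6 and 57.04 in the epithelial pools. The endothelial and immune pools overlapped over a wide range, and the myeloid and B cells of the immune class (#i2 and #i5) were nearly all in its male pool. It was called in 0 of the 4 class comparisons with edgeR (Benjamini-Hochberg adjusted p between 0.0516 and 0.637). With DESeq2 it was called higher in the immune class (adjusted p = 0.0467) and lower in the epithelial class (adjusted p = 0.00647).

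Because the transcripts differ in length, the genes were set against each other as CPM per kilobase of merged exons, which run from 4933 bases in *Itga5* to 18599 bases in *Itga1*. On that scale 34 populations, defined by the clusters the authors deposited, differed both in the sum of the 10 members and in the leading gene. The values are over both pools, and the pools of a population need not share a leading gene. Cluster #m3c, annotated as capsular stellate cells, had the highest sum with 231 CPM per kilobase, led by *Itga8* with 116. The portal vein smooth muscle cells of #m8c followed with 190, led by *Itga11* with 58.6, although *Itga7* stood above *Itga11* in their female pool. Arterial smooth muscle cells (#m2c) reached 131, of which *Itga7* made 55.8% and the laminin receptors together 63.0%. Capsular *Wt1*+ fibroblasts (#m12c) reached 77.4, of which the collagen receptors made 65.6%. *Itga9* led #e3, #e4 and #e5, and *Itga5* led #e1, #e2, #e6 and #e7. In #e8 they stood level, at 49.3 (*Itga9*) and 48.9 (*Itga5*). Cholangiocytes (#p2) reached 76.6, with 44.7% from *Itga3*. The 4 hepatocyte clusters reached between 0.948 and 6.90, and the B cells of #i5 reached 5.68.

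**Figure D2:**
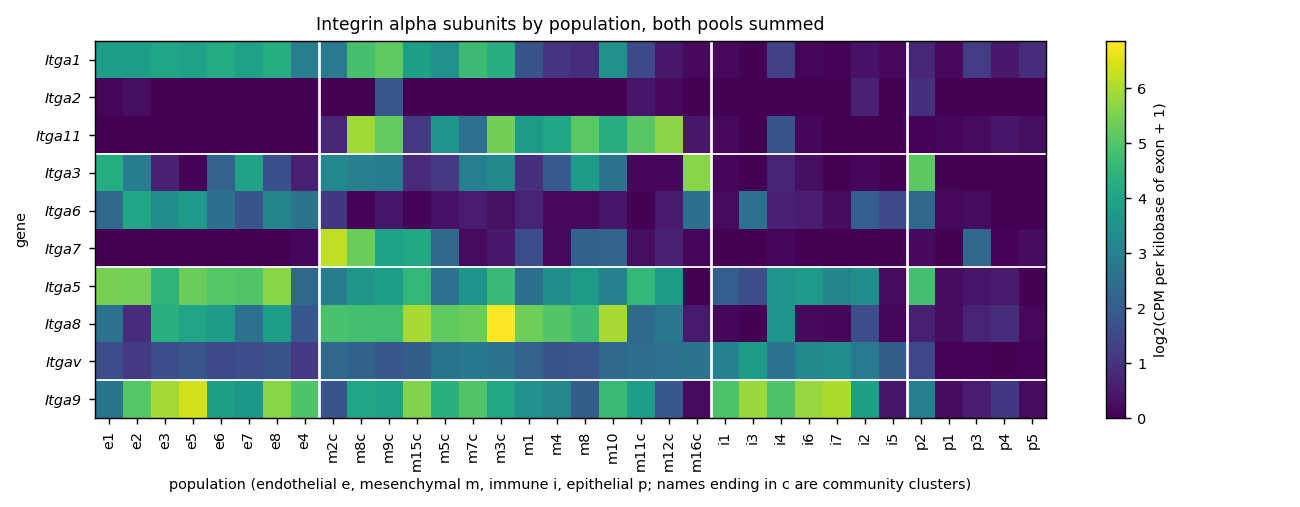
Levels of the 10 genes in the 34 populations, in CPM per kilobase of merged exons on a log color scale, over both pools. *Itga7* is high in the arterial (#m2c) and portal vein (#m8c) mural cells, *Itga8* in capsular stellate cells (#m3c), *Itga11* in #m3c, #m8c and #m12c but not in #m2c or #m15c, and *Itga3* in the 6 mesothelial cells (#m16c), cholangiocytes (#p2) and central vein endothelium (#e1), while the 4 hepatocyte populations sum to at most 6.90 over the 10 genes.

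Within the endothelium, clusters of the central vein (#e1), portal vein (#e2) and lymphatic vessels (#e4) were each compared with all other endothelial clusters, and #e3, #e5, #e6, #e7 and #e8 with these 3. The last group is called sinusoidal here after the study's marker tables, although its cell annotation and its text place #e7 at the central vein. The authors defined the clusters on the same transcriptomes, so some difference between clusters is built in. Of the 8 members that were tested over 18321 genes, *Itga3* was called higher in #e1 (1.32% of all genes were called higher and 0.0873% lower) and *Itga5* was called lower in #e4 (4.92% higher and 1.88% lower). With edgeR, 0 members were called in #e2 (1.85% higher and 0.0819% lower; 4 members had an unadjusted p under 0.05) and 0 between sinusoidal and other clusters (0.759% higher and 1.16% lower; 2 members had an unadjusted p under 0.05). With DESeq2, *Itga8* was called in both of these comparisons and *Itga3* in the second. The median log2 difference over the 8 members was 0.047 in #e1, 0.54 in #e2, -0.72 in #e4 and 0.30 for the sinusoidal group, beside 0.20, 0.18, -0.42 and 0.11 over all genes.

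*Itga3* stood at 114 and 87.4 CPM in the central vein cells of #e1, where 50 of 152 cells (32.9%, exact 95% binomial interval 25.5 to 41.0%) had at least 1 count. In #e7, also annotated as central vein, it stood at 87.5 and 79.1 CPM in 18 of 150 cells. In the sinusoidal cluster #e5 it was at 0.291 and 0.458 CPM. The pools of #e1 and #e5 were far apart, whereas those of #e1 and #e7 met at the level of whole pools. By plate, #e1 held between 75.8 and 234 CPM over 5 plates with at least 5 of its cells, and #e7 between 0 and 242 CPM with a median of 0.135 over 6 plates. The log2 fold change in #e1 was 3.76 (SE 0.74, edgeR Benjamini-Hochberg adjusted p = 0.0158), and the call was lost when counts were summed per plate (adjusted p = 0.0685). When #e7 was placed with the vein and lymphatic clusters instead, *Itga3* was called lower in sinusoidal cells (log2 fold change -3.08, edgeR adjusted p = 0.0243).

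*Itga9* had another order among the endothelial clusters. It stood at 649 and 637 CPM in #e5, 471 and 316 in #e3 (6 female cells) and 329 and 403 in #e8. It was lower, with 65.2 and 122 CPM in #e6, annotated as the last sinusoid, 167 and 35.9 in #e7 and 48.7 and 31.8 in #e1. The plates of #e5 held between 399.7 and 806 CPM and those of #e1 between 10.5 and 35.2 CPM, over the 6 and 5 plates with at least 5 cells of the cluster. The log2 difference for #e1 was -2.65 (SE 0.67) and was not called (edgeR Benjamini-Hochberg adjusted p = 0.0652). It was called with DESeq2, without the filter on low counts, with thinned cells, with sums per plate and with at least 10 cells per sum (adjusted p from 0.00203 to 0.0440), and not with the replicate block (adjusted p = 0.0757).

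*Itga8* stood at 143 and 132 CPM in #e3 (6 female cells), 120 and 88.7 in #e8 and 98.9 and 93.2 in #e6. In the portal vein cells of #e2 it was at 1.92 and 9.46 CPM. These pools did not overlap, but the log2 difference of -3.51 (SE 1.32) for #e2 was not called (edgeR Benjamini-Hochberg adjusted p = 0.274; 0.0106 with DESeq2). In #e3, where 130 of 236 cells had a count of *Itga8*, the mesenchymal markers *Pdgfra* and *Pdgfrb* summed to 0.302 CPM. *Itga6* was at its highest of all populations in #e2, with 144 and 138 CPM (log2 difference 1.45, SE 0.68, edgeR adjusted p = 0.505). *Itga5* stood between 81.6 and 247 CPM in every pool of the endothelial clusters other than #e4, and at 1.87 and 27.9 CPM in the 9 male and 13 female lymphatic cells of #e4 (log2 fold change -3.57, SE 0.84, edgeR adjusted p = 0.0152). That call was lost with thinned cells or with sums per plate (adjusted p up to 0.285).

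**Figure D3:**
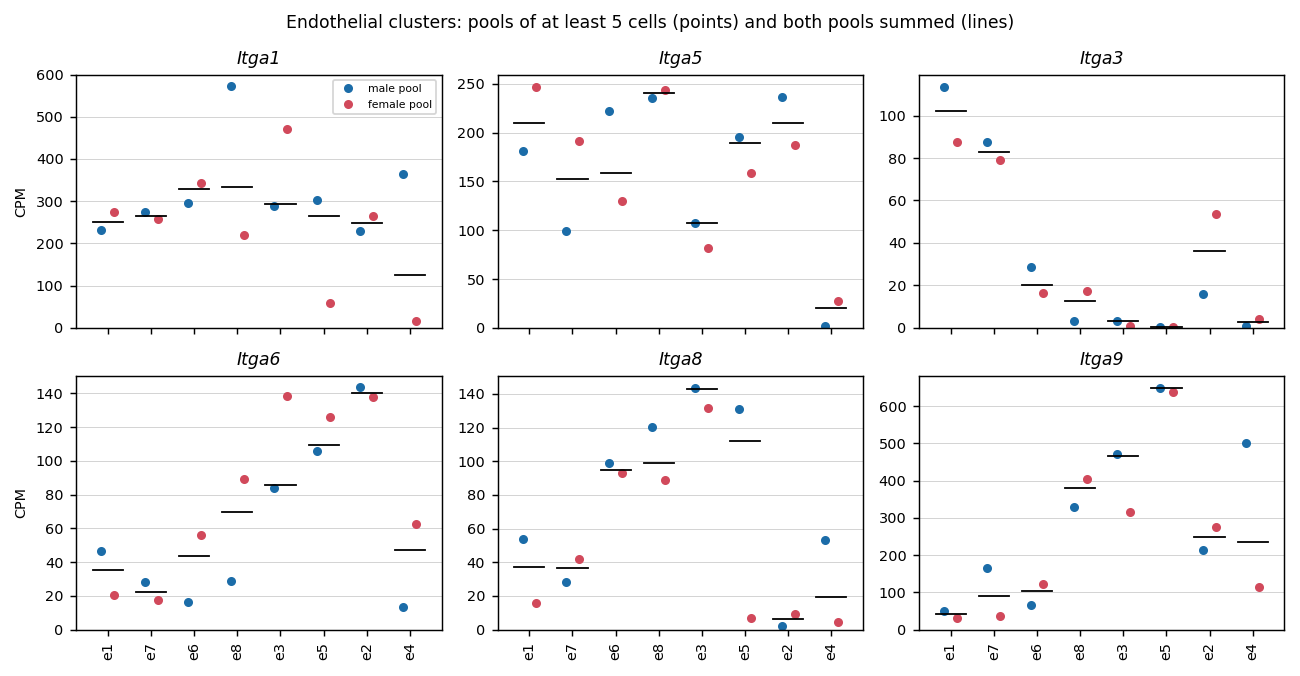
Levels of *Itga1*, *Itga5*, *Itga3*, *Itga6*, *Itga8* and *Itga9* in the male and the female pool of each endothelial cluster, in CPM on a linear axis. *Itga9* is above 600 CPM in both pools of #e5 and under 50 CPM in both pools of #e1, and *Itga3* is above 79 CPM in both pools of #e1 and #e7.

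The authors split 14 cells of #e2 off as peribiliary vessels (#e5c). In the remaining portal vein cells (#e2c) *Itga9* stood at 236 and 323 CPM and 87 of 114 cells had a count. In #e5c it stood at 1.30 and 1.07 CPM, with 4 of 14 cells having a count. The pools were apart by more than the spread between them, with 5 and 9 cells behind the values of #e5c, and no test was made. *Itga6* did not share this gap and stood at 190 and 147 CPM in #e5c and 139 and 136 CPM in #e2c.

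In the mesenchyme, mural cells (#m2c, #m8c, #m9c and #m15c), stellate cells (#m3c and #m7c) and fibroblasts (#m1, #m4, #m8, #m10, #m11c and #m12c) were compared with each other over 21342 genes. Between mural cells and fibroblasts *Itga1* and *Itga7* were called higher (1.29% of all genes were) and *Itga11* lower (2.58%). Between stellate cells and fibroblasts *Itga1* was called higher (0.764% of all genes higher, 0.52% lower). Between stellate and mural cells *Itga7* was called lower (1.7% of all genes higher, 0.553% lower). Within the mural cells *Itga11* was called lower in arterial smooth muscle (#m2c; 0.904% of all genes higher, 0.722% lower). Between the stellate clusters #m3c and #m7c, and between the peribiliary fibroblasts (#m4) and other fibroblasts, edgeR and DESeq2 called 0 of the 10 members, with 1 and 0 at an unadjusted p under 0.05, where at most 0.0281% of all genes were called in either direction.

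*Itga7* was the mural gene of the set. It stood at 431 and 693 CPM in the arterial cells of #m2c, where 173 of 236 cells (73.3%, exact 95% binomial interval 67.2 to 78.8%; 66.1% with cells thinned to 50000 counts) had a count. It stood at 319.2 and 293 CPM in the portal vein cells of #m8c, at 141 and 86.2 in #m9c and at 15.9 and 155 in the elastic smooth muscle cells of #m15c. In the stellate cluster #m3c it was at 0.477 and 11.6 CPM. The fibroblast populations held between 0.317 and 28.9 CPM, and overlapped with mural cells only through the 7 male cells of #m15c. The log2 fold change was 4.55 (SE 0.83) against fibroblasts, and -6.87 (SE 1.65) for stellate against mural cells, with edgeR Benjamini-Hochberg adjusted p-values of 0.00127 and 0.0264.

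*Itga1* was shared by mural and stellate cells. It stood at 836 and 380 CPM in the venous cells of #m9c, at 545 and 427 in #m8c, at 409 and 155 in #m3c, and at 488 CPM in the 68 male cells of #m7c. The arterial cells of #m2c held 114 and 117 CPM. The fibroblast populations held between 2.06 and 58.4 CPM, apart from 193 CPM in the male cells of #m10. The log2 fold change was 3.26 (SE 0.43, edgeR Benjamini-Hochberg adjusted p = 3.18e-05) for mural and 3.55 (SE 0.50, adjusted p = 0.000352) for stellate cells against fibroblasts, and 0.30 (SE 0.55, adjusted p = 1) between stellate and mural cells.

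*Itga11* had another order. With both pools together it was highest in #m8c and in the *Wt1*+ fibroblasts of #m12c, followed by #m3c. By pool it stood at 342 and 122 CPM in #m8c, 388 and 166 in #m12c and 208 and 224 in #m3c. The male and the female pools thus did not share this order. In the arterial cells of #m2c it was at 1.45 and 4.798 CPM and in #m15c at 0.612 and 7.47 CPM, far under every pool of the fibroblasts. With equal weight for each cluster's log level, mural cells were called lower than fibroblasts (log2 fold change -2.25, SE 0.44, edgeR Benjamini-Hochberg adjusted p = 0.00271). As a ratio of mean CPM the log2 difference was only -0.17 in the male and -1.05 in the female pool. In the same fit #m2c was lower than the other mural clusters (-4.19, SE 0.92, adjusted p = 0.0188). Both calls were lost with sums per plate (adjusted p = 0.459 and 0.0813). The venous clusters #m8c and #m9c did not share the low level of the mural group.

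**Figure D4:**
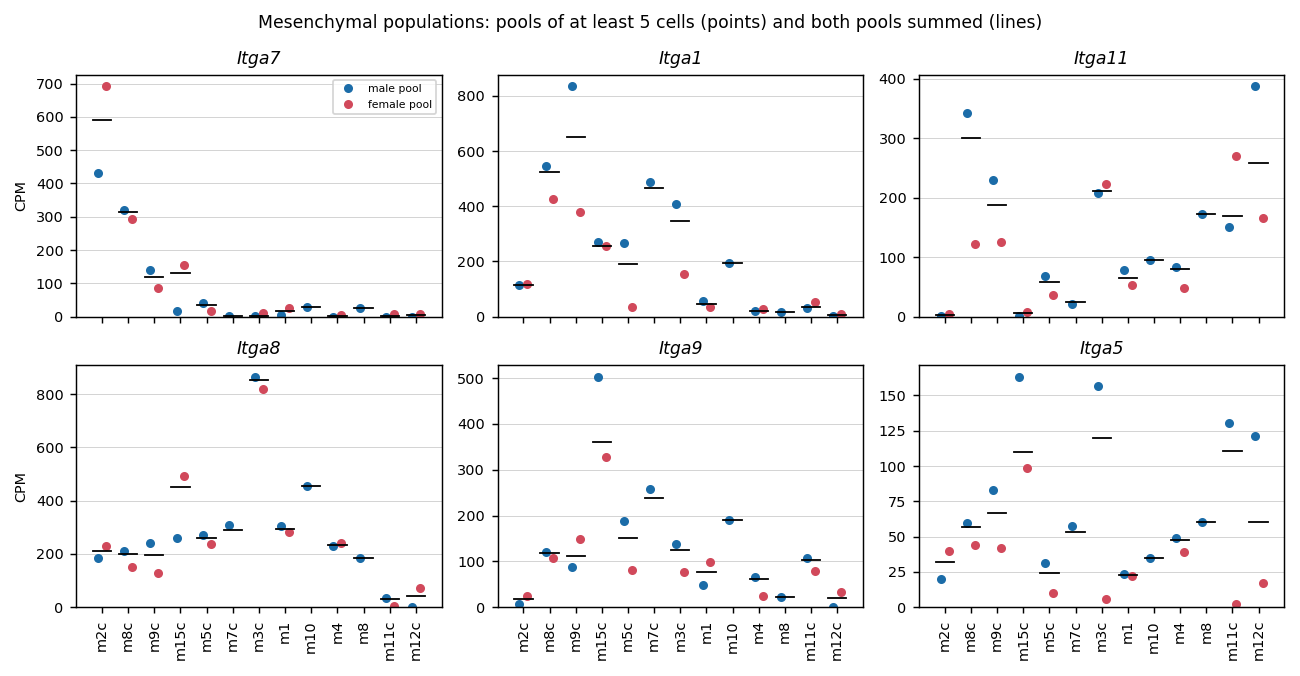
Levels of *Itga7*, *Itga1*, *Itga11*, *Itga8*, *Itga9* and *Itga5* in the male and the female pool of each mesenchymal population, in CPM on a linear axis. There is 1 point per pool of at least 5 cells. *Itga7* is above 85 CPM in both pools of #m2c, #m8c and #m9c, *Itga8* is at 865 and 819 CPM in the pools of #m3c, and *Itga11* is under 8 CPM in both pools of #m2c and #m15c.

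*Itga8* reached its highest level of all populations in the capsular stellate cells of #m3c, with 865 and 819 CPM. A count was found in 103 of 113 cells (91.2%, exact 95% binomial interval 84.3 to 95.7%; 84.7% when thinned), and 7 plates held between 740 and 1331 CPM. The other stellate cluster, #m7c, held 309 CPM in male cells, #m10 held 454 CPM and #m15c held 261 and 492 CPM. The *Wt1*+ fibroblasts were lowest of the 13 populations other than mesothelial cells. They held 35.5 and 5.22 CPM in #m11c (5 female cells) and 1.11 and 71.1 CPM in #m12c. The log2 difference between stellate cells and fibroblasts was 1.97 (SE 0.60) and was not called (edgeR Benjamini-Hochberg adjusted p = 0.144), and that between #m3c and #m7c was 1.34 (SE 1.23, adjusted p = 1). *Itga8* shares 372 exon bases with *E030013I19Rik* on the opposite strand, and since the strand used in counting is not given in the sources used here, reads from the pair cannot be told apart over those bases.

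*Itga9* stood at 503 and 328 CPM in #m15c and at 258 CPM in the male cells of #m7c, and at 7.58 and 24.9 CPM in the arterial cells of #m2c. The log2 difference of #m2c from the other mural clusters was -3.44 (SE 1.01, edgeR Benjamini-Hochberg adjusted p = 0.0945) and was not called. It was called with DESeq2 (adjusted p = 0.000707) and without the filter on low counts (0.0111). *Itgav* and *Itga5* were called in 0 of the 6 mesenchymal comparisons with edgeR or DESeq2, with 0 values at an unadjusted p under 0.05. *Itga3* stood at 282 CPM over the 6 mesothelial cells of #m16c, above the 195 CPM of cholangiocytes over both pools, but its counts came from 2 cells, with 93.5% from 1 of them, and no test was made.

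Cholangiocytes (#p2) were compared with the 4 hepatocyte clusters over 16694 genes. Of the 10 members 6 were called higher (28.6% of all genes) and 0 lower (8.67% of all genes; 0 with DESeq2 and 0 at an unadjusted p under 0.05). The median log2 difference was 4.52 over the members and 1.38 over all genes. The hepatocyte side rested on male cells, because only 2 female hepatocytes were deposited. Each hepatocyte cluster was thus a single male sum, and with 6 sums and 1 residual degree of freedom the spread in this fit came from the male and female pools of #p2.

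*Itga3* stood at 173 and 400 CPM in #p2, where 106 of 194 cells (54.6%, exact 95% binomial interval 47.4 to 61.8%) had a count. The 201 male hepatocytes held 4 counts of it in 4 cells, which put the male ratio of CPM at 1548 (counting interval 605 to 5684). The fitted log2 fold change was 11.46 (SE 1.01, edgeR Benjamini-Hochberg adjusted p = 2.41e-08), a size that depends on the prior count because cluster #p3 was at 0. *Itga6*, the other laminin receptor gene of cholangiocytes, stood at 36.4 and 29.8 CPM in #p2 and at 0.615 CPM as the mean of the male hepatocyte clusters (log2 fold change 5.89, SE 1.13, edgeR adjusted p = 0.000275). Both genes were apart from every hepatocyte cluster in both pools of #p2.

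*Itga5* stood at 137 and 128.5 CPM in #p2 and at 1.10 CPM in the hepatocyte mean (log2 fold change 6.76, SE 0.86, edgeR Benjamini-Hochberg adjusted p = 2.31e-06). *Itgav* stood at 15.1 and 51.3 CPM against 0.445 (5.39, SE 1.13, adjusted p = 0.000609), and *Itga9* at 52.4 and 58.2 CPM against 3.65 (3.65, SE 0.88, adjusted p = 0.00224). The calls for *Itgav* and *Itga9* were lost with sums per plate (edgeR adjusted p = 0.134 and 0.285). *Itga2* was called as well (edgeR adjusted p = 0.032), on 409 counts in 4 of 157 male cholangiocytes and 0 of 37 female ones (0 allows a share of up to 8.11% of cells with a count, which is not a limit on cells expressing the gene), against 2 counts in 1 of 201 male hepatocytes. Its male ratio of CPM was 130 (counting interval 35.9 to 1080), 48.4% of its counts came from 1 cell, and the call was lost with thinned cells or sums per plate (adjusted p up to 0.149). Such intervals cover counting error only, because Smart-seq2 reads are not counted by molecule.

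*Itga7* and *Itga8* gave isolated values in the epithelial class. In hepatocyte cluster #p3 *Itga7* was at 31.4 CPM in 4 of 23 cells, with 73.3% of the counts from 1 cell, and the 5 smooth muscle markers summed to 537 CPM there, against 17.7 CPM in #p4. In female cholangiocytes *Itga8* was at 36.0 CPM, with 95.6% of the counts from 1 cell. The part of other cells in these values was not tested.

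In the immune class, Kupffer cells, the resident macrophages of the sinusoid (#i1, #i3, #i4, #i6 and #i7), were compared with myeloid cells (#i2) and B cells (#i5) over 20110 genes. Of the 9 members tested, *Itga9* was called higher (0.995% of all genes) and 0 were called lower (1.35% of all genes; 0 with DESeq2 and 0 at an unadjusted p under 0.05). *Itga9* stood at 212 and 549 CPM in #i1, where 9 cells were female. It stood at 149 and 452 CPM in #i3 (10 male cells) and at 50.9 and 296 CPM in #i4 (11 male cells). In the female cells of #i6 and #i7 it stood at 416 and 500 CPM. It stood at 106 CPM in the male cells of #i2 and at 2.48 CPM in the male cells of #i5. Among male values, the myeloid cells of #i2 lay under #i1 and #i3 and above only #i4, whose cells are annotated as contaminated or cycling. The B cells lay far under all of them. Cluster #i2 mixes cells annotated as monocytes with cells annotated sKC, which the study takes for a Kupffer subpopulation. Over all cells so annotated, the male values were 65.1 CPM for monocytes and 208 CPM for sKC. The log2 fold change was 4.48 (SE 0.997, edgeR Benjamini-Hochberg adjusted p = 0.000881), whereas the log2 ratio of mean CPM in the male pool, where both sides had cells, was 1.35. Nearly all #i2 and #i5 cells were male and most Kupffer cells female, and with the replicate block the value was 3.07 and not called (adjusted p = 0.136). The share of cells with a count was 97.6% in #i7 (exact 95% binomial interval 93.9 to 99.3%) and 39.7% in #i5, at median depths of 450234 and 262466 counts.

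*Itgav* was the other member found in most Kupffer cells of the female clusters, with 102 CPM in #i7 (124 of 164 cells) and 90.03 CPM in #i6 (64 of 90 cells with both pools together). The value of 450 CPM in the 10 male cells of #i3 came to 89.1% from 1 cell. Against #i2 and #i5 the log2 difference was 1.47 (SE 1.21, edgeR Benjamini-Hochberg adjusted p = 1).

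*Itga1* and *Itga8* were at most 1.94 CPM over both pools of the Kupffer clusters #i1, #i3, #i6 and #i7, and higher in a part of #i4 together with markers of other cells. In the 26 cells of #i9c, which the study names as carrying endothelial transcripts, *Itga8* stood at 321 and 150 CPM, *Itga1* at 54.8 CPM and *Itga11* at 29.1 CPM with both pools together, and 97.2% of the *Itga11* counts came from 1 cell. In the same cells the 5 endothelial markers (*Cdh5* among them), all detected, summed to 3084 CPM, *Pdgfra* and *Pdgfrb* to 258 CPM and the 3 Kupffer markers to 4690 CPM. *Itga6* stood at 174 CPM and *Itga5* at 103 CPM in these cells, with both pools together. When these cells were removed, 3 class calls were lost (*Itga6* in the mesenchymal, *Itga7* in the endothelial and *Itga1* in the epithelial class).

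The beta subunits, which pair with these alpha subunits at the cell surface, were read from the same fits. *Itgb1*, the common partner, was found in 84.8% of endothelial, 85.3% of mesenchymal, 73.9% of immune and 51.1% of epithelial cells thinned to 50000 counts. Per kilobase it was highest in #m9c with 289 CPM and #m2c with 251 CPM, and lowest in #p1 with 1.76. It was called higher in mural cells than in fibroblasts (log2 fold change 1.19, edgeR Benjamini-Hochberg adjusted p = 0.0014), and *Itgb8* was called lower (-3.96, adjusted p = 0.0432). *Itgb5*, a partner of *Itgav*, was higher in the mesenchymal class (2.94) and the immune class (3.20) and lower in the endothelial class (-5.997, all log2 fold changes called by edgeR). *Itgb6* and *Itgb8*, also partners of *Itgav*, were higher in the epithelial class by log2 fold changes of 7.33 and 5.87, and *Itgb4*, the partner of *Itga6*, by 4.68, while *Itgb3* (-4.32) and *Itgb7* (-3.92) were called lower there. In cholangiocytes against hepatocytes 5 of 8 beta subunits (*Itgb1*, *Itgb4*, *Itgb5*, *Itgb6* and *Itgb8*) were called higher, where 28.6% of all genes were.

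Among the 24 genes of the adhesion complex, the proteins that tie integrins to actin, 8 of the 23 tested were called higher in mural cells than in fibroblasts (1.29% of all genes). They included *Flna*, which crosslinks actin (log2 fold change 2.54), *Lims2* (2.17) and *Vcl*, encoding vinculin (1.87). Of the 24 matrix ligand genes, 20 were called higher in the mesenchymal class (9.47% of all genes), with a median log2 difference of 5.03 against 0.018 over all genes. Between mural cells and fibroblasts 8 of the 24 ligand genes were called lower (2.58% of all genes), among them *Lamb1* (-3.62) and *Col1a1* (-1.50), and 1 higher, *Lama5* (3.998), a laminin chain of vascular basement membranes. The median log2 difference over the 24 was 0.18, against -0.097 over all genes, so the list as a whole did not lie on the lower side. In the immune class 15 of 24 ligand genes were called lower (5.25% of all genes).

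Single cells often held several members at once. After thinning to 50000 counts, endothelial, mesenchymal and immune cells had a median of 2 members with a count and epithelial cells 1. The medians ran from 0 in the hepatocyte clusters and in #i5 to 4 in #m15c, where 24 of 33 cells held at least 3 members. In the unthinned arterial cells of #m2c, 149 of 236 cells held counts of both *Itga7* and *Itga8*. In #m3c 79 of 113 cells held both *Itga1* and *Itga8*, and in #i7 122 of 164 cells held both *Itga9* and *Itgav*. In #p2 *Itga3* went with *Itga9* and with *Itga5* in 51 of 194 cells each.

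**Figure D5:**
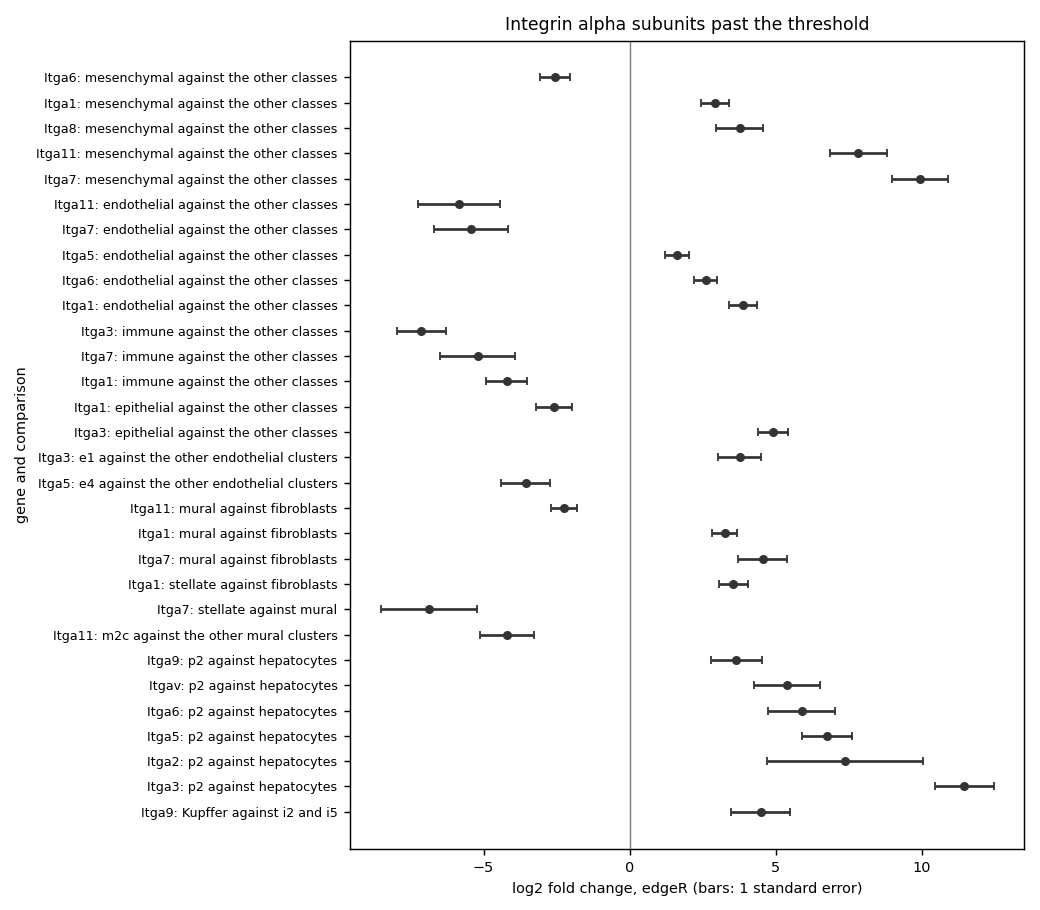
Log2 fold changes of the called member results with their standard errors, by comparison. The points to the right of 0 are higher in the group named first, and the laminin receptor genes *Itga7* (9.95 in the mesenchymal class) and *Itga3* (11.46 in cholangiocytes) lie farthest to the right.

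The genes with the pattern most like each member over the 34 populations were ranked by Pearson's r of log2(CPM + 1) among 15047 genes, as a description over populations that share libraries. *Itga7* was followed most closely by *Dgkb* (r = 0.94) and *Gm17276* (0.94), with *Myocd*, the coactivator of smooth muscle genes, next (0.93). *Itga11* was followed by *Pdgfra* (0.96), whose reporter was used in the sort, *Runx1t1* (0.96) and *Col5a1* (0.96). *Itga8* was followed by *E030013I19Rik* (0.96), with which it shares exon bases, *Cntfr* (0.91) and *Emilin1* (0.91), a matrix glycoprotein. *Itga9* was nearest to *Ppp1r9b* (0.89), *Itgav* to *Cyba* (0.92), *Itga5* to *Pros1* (0.88), *Itga1* to *Chst7* (0.87), *Itga6* to *Gm29562* (0.85), *Itga3* to the actin crosslinker *Actn4* (0.80) and *Itga2* to *Tent5b* (0.69). Among the members themselves the highest value was 0.78 between *Itga1* and *Itga8*, and the lowest -0.56 between *Itga6* and *Itga11*.

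In the mouse genome (GRCm38, GENCODE vM21), *Itga1* lies at chr13:114953096-115101964 and *Itga2* beside it at chr13:114833081-114932100, both on the minus strand. *Itga11* (chr9:62677826-62783982) and *Itga9* (chr9:118606690-118901003) lie on the plus strand of the same chromosome. Chromosome 2 holds *Itga8* (chr2:12106632-12301922, minus strand), *Itga6* (chr2:71745616-71858416) and *Itgav* (chr2:83724397-83806916, both plus strand). *Itga3* lies at chr11:95044474-95076801 (minus), *Itga5* at chr15:103344286-103366763 (minus) and *Itga7* at chr10:128933818-128958282 (plus). Besides *Itga8*, *Itga1* shares 685 exon bases with *Gm49395*, *Itgav* 634 with *Gm13684* and *Itga7* 9 with *Mettl7b*, and reads over those bases are uncertain.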

How the data were processed

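Smart-seq2 libraries of single liver cells were sequenced and, per the labels' processing notes, handled with bcl2fastq, Bowtie, Bowtie2, Subread, featureCounts and Seurat on GRCm38 or mm10. The authors deposited raw counts per gene and cell, with clusters from pagoda2. Deposited per-class tables held the same values and were not used. ERCC spike-ins (1.95% of counts) were left out. Counts were summed per pool and class, cluster or population (at least 5 cells) and tested with edgeR 4.0.16 (quasi-likelihood, TMM, filterByExpr, Benjamini-Hochberg adjustment) in R 4.3.3. DESeq2 1.42.0, no filter, thinning to 50000 counts, plate sums, the replicate block and left-out pools were alternatives. The 10 members, the partner lists and the rule to name all of them were chosen with earlier results of these data known. The cluster sums of a class came from the same male and female pools, which therefore pair them; their male minus female differences correlated at a median of 0.095 (endothelial), 0.0033 (immune) and 0.23 (mesenchymal). Median depth per pool ran from 88932 to 321121 counts a cell. Cells had passed the authors' limits on genes, which also serve against doublets; no doublet caller was run. On simulated data, 4-fold or 8-fold changes were called in 96.7% of cases for the mesenchymal class comparison of 23462 genes. For #p2 against hepatocytes (15244 genes) the share was 87.3%. The simulated counts had the same fixed spread for every gene, no pool or plate effect, and changes only in well-counted genes. These shares therefore do not give the power for the members, and a member that was not called is not shown to be unchanged.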

Additional observations from a re-analysis of the deposited data

Results flagged for a closer look

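*Itgav* in the lymphatic cells of #e4 went in opposite directions in the pools. Against the mean CPM of the other endothelial clusters, the male log2 ratio was 1.10 and the female log2 ratio -4.43, a difference that was not tested. The male value of 39.9 CPM came from 64 counts in 2 of 9 cells, and the female value of 1.12 CPM from 4 counts in 2 of 13 cells.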

How the results depend on the processing

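Of the 30 called member results, the same direction and call were found for 29 of 29 with DESeq2 (which gave no adjusted p for *Itga2* in cholangiocytes), 30 of 30 without the filter on low counts, 28 of 30 with thinned cells and 23 of 30 with sums per plate, and no called result reversed. With 1 pool left out, where the lone pool of a class is assumed to vary like the others, between 8 and 14 of the 15 calls between classes were kept, and calls in all, new ones included, ranged from 8 to 16. At most 10 of the 15 were kept without either endothelial pool, either mesenchymal pool or the male epithelial pool. The 2 calls among endothelial clusters became 6 with DESeq2, 4 without the filter and 4 with at least 10 cells per sum. The 6 calls in cholangiocytes became 3 with sums per plate, where plates of 1 pool count as separate samples. With the replicate block, which pairs sums of the same pool, calls numbered 14 between classes, 2 among endothelial clusters, 6 among mesenchymal populations and 0 for Kupffer cells, where 1 had been called; the block changed no other call than *Itga5* in the endothelial class and *Itga9* in Kupffer cells. The block could not be fitted for cholangiocytes, because hepatocyte sums came from the male pool. The causes were not tested. Leaving out a pool among clusters of 1 class leaves no spread to test, so those values have no p. The smallest clusters limit what could be seen: #e4 had 22 cells and #m16c 6.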
